A study of Drosophila melanogaster with 10 samples.

Results

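The regions described here held the insulator proteins Mod(mdg4)2.2 and CP190 without Su(Hw), the DNA-binding protein of the gypsy insulator. They came from peak lists of 5 proteins mapped by chromatin immunoprecipitation and sequencing (ChIP-seq) in Kc167, an established Drosophila melanogaster line of embryonic origin. Peaks of the 5 lists were merged into one region wherever they shared 1 bp or more, and a region was selected by its content: a peak of Mod(mdg4)2.2 and of CP190, and none of Su(Hw), Rump or Shep. This gave 292 of 5224 merged regions (5.59%, 95% interval 5.00 to 6.25). They made up 12.1% of the 2413 regions with Mod(mdg4)2.2, 10.7% of the 2720 with CP190 and 20.5% of the 1425 with both.

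No genotypes, treatments or times were compared: all libraries were of Kc167 cells, and 8 ChIP libraries and 2 input libraries were made from 2 chromatin preparations. The Mod(mdg4)2.2 list combined 2 libraries, one from a guinea pig and one from a rabbit antibody. The CP190 list came from 1 library with a rabbit antibody. Mod(mdg4)2.2, Su(Hw), Rump and Shep were precipitated from the first preparation and CP190 from the second, so that factor and preparation cannot be told apart for CP190. There was 1 list per factor and no replicate, and the depth of the libraries is unknown. Regions of 1 list are not replicates of a condition, so values are compared here by medians and shares with no p-value. Intervals are 95% binomial intervals (Wilson for shares, order statistics for medians) and cover counting error only.

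In the gypsy insulator, Su(Hw) binds DNA through its zinc fingers and brings in Mod(mdg4)2.2 and CP190. Mod(mdg4)2.2 is one of many isoforms of the mod(mdg4) gene, which share a BTB domain for protein contacts and differ in their carboxy-terminal ends. CP190 carries a BTB domain and zinc fingers, and is known as a common partner of several Drosophila insulator proteins, among them dCTCF and BEAF-32 as well as Su(Hw). Rump and Shep are RNA-binding proteins that were mapped beside the insulator proteins. Which other DNA-binding proteins lay at the regions was not measured in this series.

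The regions had a simple make-up. Each held 1 CP190 peak, 285 held 1 Mod(mdg4)2.2 peak and 7 held 2. The Mod(mdg4)2.2 peak, which is 304 bp wide in every case, lay whole within the CP190 peak in 287 regions (98.3%, 96.1 to 99.3), and 286 regions were no longer than their CP190 peak. Their median length was 2094.5 bp. The overlap of 1 bp between Mod(mdg4)2.2 and CP190 therefore decided few cases. Overlap by 1 bp also set which regions were left out for a Su(Hw), Rump or Shep peak. Counted per Mod(mdg4)2.2 peak without merging, 335 peaks qualified, against 299 in the regions. With all peaks resized to 300 bp, 385 regions met the rule. Overlap was shortest at chr3R:4804755-4807103 (build dm3), with 7 bp shared, then at chr3R:25600178-25601644 with 151 bp and at chr2L:15920053-15921121 with 235 bp. Just outside the rule, the Mod(mdg4)2.2 peak at chr2L:12993470-12993773 lay 6 bp from a CP190 peak, and those at chr3L:17570832-17571135 and chr3L:5270194-5270497 lay 328 and 823 bp from one. These 3 were the only regions with Mod(mdg4)2.2 alone, of 298, that had a region with CP190 alone within 1000 bp.

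At most of the regions the called peaks of the 2 proteins had midpoints close together. The midpoint of the Mod(mdg4)2.2 peak was a median of 35.5 bp (29.5 to 41) from that of the CP190 peak, with quartiles of 15.4 and 80 bp, although the CP190 peaks were about 2 kb wide. The midpoints were within 100 bp in 234 regions (80.1%, 75.2 to 84.3), within 500 bp in 280 (95.9%, 93.0 to 97.6) and over 1000 bp apart in 2. The Mod(mdg4)2.2 midpoint was in the middle 20% of the CP190 peak's length in 256 regions (87.7%, 83.4 to 91.0). It lay on the side of lower coordinates in 153 (52.4%, 46.7 to 58.1), so neither side was preferred within this interval.

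The comparison of interest was with the 765 regions that held Su(Hw) as well as Mod(mdg4)2.2 and CP190, also without Rump or Shep, called triple regions here. In 754 of these the Mod(mdg4)2.2 peak of highest score met CP190 directly. There the midpoints were a median of 29.3 bp apart (26.5 to 33), and 76.8% (73.6 to 79.7) were within 100 bp. These intervals overlap those without Su(Hw). Among regions with a single peak of each factor they did not: the median was 35 bp (29.5 to 40.5, 285 regions) without Su(Hw) and 25.5 bp (23 to 28, 637 regions) with it. That comparison takes no account of the Mod(mdg4)2.2 score. In the 5 higher deciles of score, the median over all regions was 28 bp without Su(Hw) (20.5 to 35.5) and 28 bp with it (25 to 32.5). In the 5 lower deciles it was 38 bp (32.5 to 48.5) and 34.5 bp (29 to 46), so the intervals overlap in both bands. The bands include regions with several peaks. Regions with a single peak of each factor were not split by score, so the bands do not bear on the difference found there. In the 68 regions with Mod(mdg4)2.2, CP190 and Shep and no Su(Hw) or Rump, the median was 49 bp (33.5 to 80.5), and the midpoints were within 100 bp in 44 (64.7%).

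**Figure D1:**
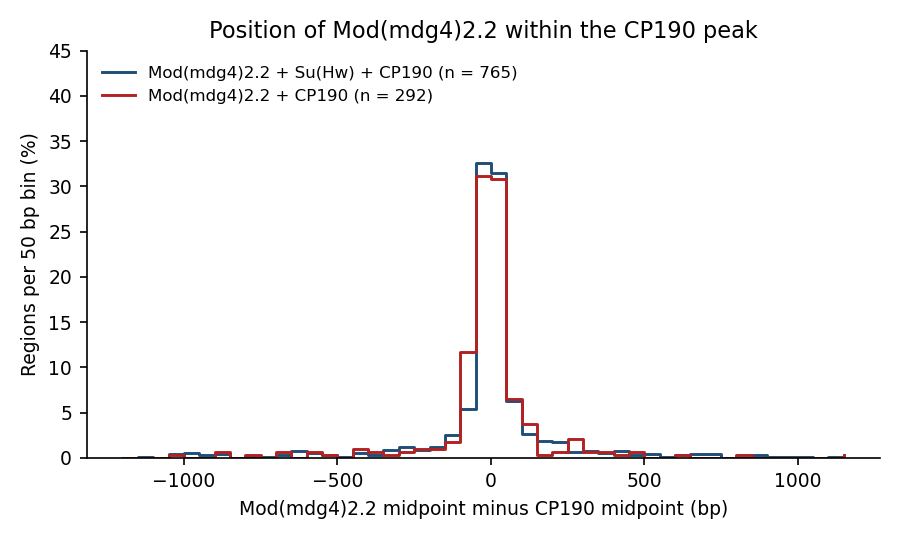
Distance in bp from the CP190 midpoint to the midpoint of the Mod(mdg4)2.2 peak of highest score (horizontal axis), as the percentage of regions in each 50 bp bin (vertical axis), for the 292 regions without Su(Hw) (red) and 765 triple regions (blue). Both sets peak at 0, and 80.1% of the regions without Su(Hw) lie within 100 bp; 11 triple regions beyond 1200 bp are not drawn.

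Among the regions, the median Mod(mdg4)2.2 score was lower where the midpoints lay farther apart, within intervals that overlap. The score is the authors' own signal value for each peak and played no part in choosing the regions, beyond the authors' threshold for calling a peak. The 234 regions with midpoints within 100 bp had a median score of 72.0 (66.7 to 79.4), the 46 at 100 to 500 bp one of 62.3 (55.6 to 70.5), and the 12 at over 500 bp one of 51.9 (47.4 to 89.3). The 12 regions with the midpoints farthest apart had wider CP190 peaks, with a median of 2834.5 bp (2023 to 3787). The Spearman rho of score and midpoint distance over the 292 regions was -0.17, and that of score and CP190 width was 0.10. These describe sites that share their libraries, and both are weak.

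Mod(mdg4)2.2 gave weak peaks at most of the regions. The scores ran from 45.8 to 382, with quartiles of 53.9 and 97.8 and a median of 68.7 (64.5 to 73.8), on a list that runs from 45.7 to 544 with a median of 99.0. Only 70 of the 292 regions (24.0%, 19.4 to 29.2) had a score above the median of the list, where 50% of all peaks lie by construction. In the highest decile of the list, which holds 9.97% of its peaks, were 2 regions (0.685%, 0.188 to 2.46). The 3 lowest deciles held 144 regions (49.3%, 43.6 to 55.0). The peak had the lowest q of the list, 0.000261, in 158 regions (54.1%, 48.4 to 59.7), against 71.6% of all peaks, and the highest q of the list was 0.00624.

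Placed among the combinations of the 3 insulator proteins, the regions stood between Mod(mdg4)2.2 alone and Mod(mdg4)2.2 with Su(Hw). The median score was 57.6 (55.4 to 59.3) in the 298 regions with Mod(mdg4)2.2 alone, 68.7 (64.5 to 73.8) with CP190, 91.5 (86.5 to 103) in the 486 with Su(Hw) and 159 (150 to 164) in the 765 triple regions. The 4 intervals do not overlap. The ranges of the 4 combinations did overlap widely: the lowest score was 45.7 to 46.3 in each, and the highest was 371, 382, 360 and 407. Scores above the list median were found in 5.37% of regions with Mod(mdg4)2.2 alone, 47.1% of those with Su(Hw) and 75.7% of triple regions. Triple regions more often held more than 1 Mod(mdg4)2.2 peak, in 126 of 765 (16.5%, 14.0 to 19.3) against 7 of 292 (2.40%, 1.17 to 4.86). Among regions with a single peak of each factor the medians were 153 and 68.4.

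**Figure D2:**
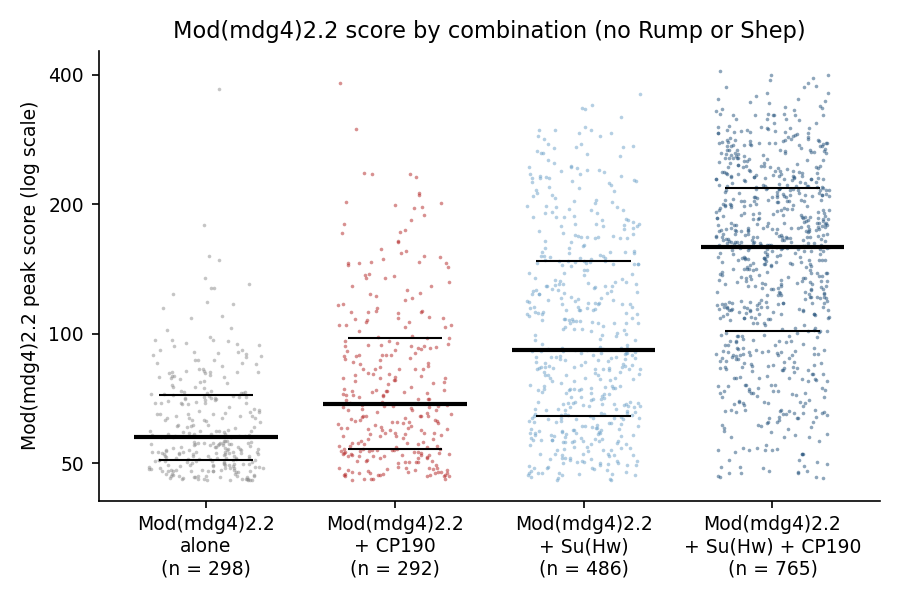
Score of the highest Mod(mdg4)2.2 peak (vertical axis, log scale, authors' score with no unit) in each region of 4 combinations without Rump or Shep; each point is 1 region, thick lines are medians and thin lines quartiles. Medians are 57.6, 68.7, 91.5 and 159 from left to right, over ranges that overlap widely.

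The strongest Mod(mdg4)2.2 peaks among the regions are given one by one. The highest score, 382, was at chr2R:11648831-11650982, with the nearest Su(Hw) peak 16746 bp away and the nearest Rump peak 17763 bp away. The second, 299.6, was at chr3L:3177495-3179611, 17177 bp from Su(Hw). The next was 236, at chrX:19533931-19536123, which lay 1056 bp from a Shep peak and 41221 bp from Su(Hw). A score of 236 was also found at chr2L:20293067-20295195, the one of the 5 with Su(Hw) close by, at 745 bp, and Rump at 2014 bp. The last of the 5, with 235, was at chr2R:3701801-3703398, 38409 bp from Su(Hw). In 4 of the 5 the distance was above the median of all 292 regions, 16634 bp, above which 50% of them lie by definition. The lowest scores, 45.8, 45.9 and 45.9, were at chr2L:5340170-5342254, chr2L:18118690-18120928 and chr2L:1986781-1988788, next to the lowest score of the whole list, 45.7. In all 8 regions the midpoints of the 2 proteins were between 7 and 169.5 bp apart.

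CP190 peaks at the regions were wide. The CP190 list has no score, and the width of its peaks is the measure it offers. The median width was 2094 bp (2069 to 2107), with quartiles of 2011.75 and 2150.5 bp, and 195 of 292 peaks (66.8%, 61.2 to 71.9) were wider than the median of the list, against 49.8% of all CP190 peaks. The median was 1972 bp (1957 to 1983) in the 1003 regions with CP190 alone, 1939.5 bp (1863 to 1991) in the 90 with Su(Hw) and CP190, and 2039 bp (2031 to 2050) in triple regions. The difference from CP190 alone was found at both the narrow and the wide end. With CP190 alone the quartiles were 1566 and 2061.5 bp, both below those of the regions. Only 33.5% (30.6 to 36.5) of peaks with CP190 alone were wider than the median of the list. Peaks under 1500 bp made up 5.48% (3.40 to 8.71) of the regions and 23.0% (20.5 to 25.7, 231 of 1003) of regions with CP190 alone. The minimum width of 480 bp was found in 4 regions (1.37%), in 94 regions with CP190 alone (9.37%) and in 5.07% of the whole list.

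CP190 peaks were also wider at the regions than at triple regions within the 5 higher and within the 5 lower deciles of Mod(mdg4)2.2 score. In the 5 higher deciles of the score list the medians were 2107.5 bp (2066 to 2129, 70 regions) and 2048 bp (2037 to 2061, 579 triple regions). In the 5 lower deciles they were 2088 bp (2055 to 2105, 222 regions) and 2013 bp (2000 to 2033, 186 triple regions). These bands match score only roughly, as 2.05% of the regions and 25.2% of triple regions were in the 2 highest deciles. The 207 regions that held Rump as well as the 3 insulator proteins, left out here, had a median score of 349. Their median CP190 width was 2104 bp (2088 to 2117), an interval that overlaps that of the 292 regions (2069 to 2107). The widest CP190 peaks among the regions were 4145 bp at chr2L:6850961-6855105, 3927 bp at chr3R:21070309-21074235 and 3787 bp at chr3R:11110901-11114687. In these 3 the Mod(mdg4)2.2 peak lay off centre, by 1010.5, 890.5 and 867.5 bp. Of the 4 narrowest, 3 are named here, chr3L:916931-917410, chr3L:5787058-5787537 and chr3R:4907897-4908376, all of 480 bp and with midpoints 2, 25 and 42 bp from that of Mod(mdg4)2.2. Their Mod(mdg4)2.2 scores were 146, 46.9 and 53.2, so that a narrow CP190 peak went with both a high and a low score.

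Seen from CP190, Mod(mdg4)2.2 was found at 292 of 1295 CP190 regions without Su(Hw), Rump or Shep (22.5%, 20.4 to 24.9), and at 765 of 855 with Su(Hw) (89.5%, 87.2 to 91.4). The selection sets the classes that are compared, and the shares are given as a description. Without Su(Hw), the share depended on the width of the CP190 peak. It was 8.10% (5.85 to 11.1) for the narrowest 25% of the list, up to 1891 bp, then 18.3% (14.6 to 22.7), 29.0% (24.0 to 34.5) and 45.6% (39.5 to 51.8) in the widest 25%, over 2117 bp. With Su(Hw) it ran from 76.8% (69.8 to 82.6) to 95.4% (91.7 to 97.5). Length alone gives a wide peak more room to meet a Mod(mdg4)2.2 peak, and the part of this in the shares was not tested. The boundaries were 1891, 2025 and 2117 bp and the list ran from 480 to 5492 bp, so the outer classes spanned far more widths than the middle ones.

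**Figure D3:**
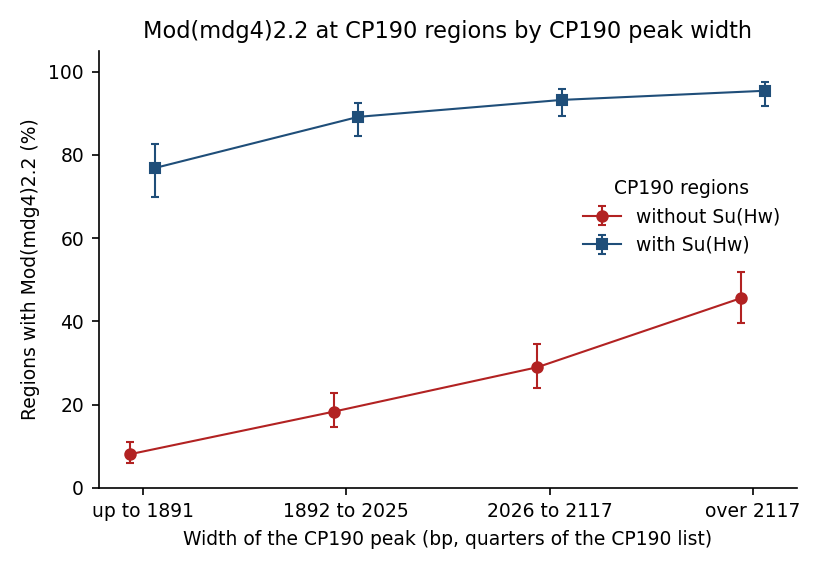
Percentage of CP190 regions that hold Mod(mdg4)2.2 (vertical axis) by quartile class of CP190 peak width in bp (horizontal axis), without Su(Hw) (red) and with it (blue), Rump and Shep regions left out; bars are Wilson 95% intervals. Without Su(Hw) the share goes from 8.10% to 45.6%, and with Su(Hw) from 76.8% to 95.4%.

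Seen from Mod(mdg4)2.2, CP190 was found at 292 of 590 regions without Su(Hw), Rump or Shep (49.5%, 45.5 to 53.5), and at 765 of 1251 with Su(Hw) (61.2%, 58.4 to 63.8). The CP190 share went with the Mod(mdg4)2.2 score in both settings. Without Su(Hw), CP190 was at 70 of 86 regions in the 5 higher score deciles (81.4%, 71.9 to 88.2) and at 222 of 504 in the 5 lower (44.0%, 39.8 to 48.4). With Su(Hw), it was at 579 of 808 (71.7%, 68.5 to 74.7) and 186 of 443 (42.0%, 37.5 to 46.6). The intervals overlap in both bands. Weighted to the score deciles of the regions without Su(Hw), those with it held CP190 in 41.6% of cases, below the 49.5% without. The share without Su(Hw) was the higher in 8 of the 10 deciles, all but the first and the seventh from the top. With all peaks resized to 300 bp, the order in the 5 higher deciles turned, to 53.8% without and 65.0% with Su(Hw), and with the Rump and Shep lists not used it was 74.4% against 76.1%. The order turned in the 5 lower deciles as well, to 34.5% against 38.2% with resized peaks and 40.1% against 42.6% without those lists. Counted per Mod(mdg4)2.2 peak, the shares were 82.8% against 71.1% in the higher and 47.3% against 47.2% in the lower deciles.

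**Figure D4:**
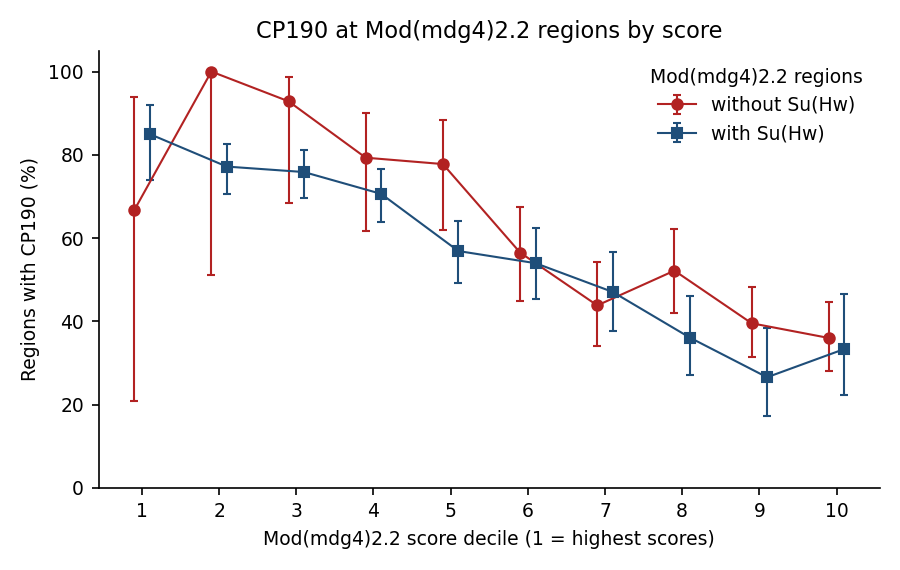
Percentage of Mod(mdg4)2.2 regions that hold CP190 (vertical axis) by decile of Mod(mdg4)2.2 score (horizontal axis, 1 is highest), without Su(Hw) (red) and with it (blue), Rump and Shep regions left out; bars are Wilson 95% intervals. Without Su(Hw) the share is 36.0% of 125 regions in decile 10 and 77.8% of 36 in decile 5, and deciles 1 to 3 hold only 3, 4 and 14 regions.

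Rump and Shep were kept out by the rule, and what it removed is described here. There were 369 regions with Mod(mdg4)2.2 and CP190 and no Su(Hw), of which 68 held Shep, 7 Rump and 2 both. Rump, the fly member of the hnRNP M proteins, which bind RNA, was thus at 9 of 369 (2.44%, 1.29 to 4.57), and among the 442 regions with Mod(mdg4)2.2 and neither Su(Hw) nor CP190 it was at 10 (2.26%, 1.23 to 4.11). The 7 regions with Rump had Mod(mdg4)2.2 scores from 55.0 to 353, with a median of 161. In the highest score decile, 2 of 4 regions without Su(Hw) but with CP190 held Rump (15.0 to 85.0%), against 175 of 232 with both (75.4%, 69.5 to 80.5). In the second decile the counts were 0 of 6 and 46 of 197, and so few regions without Su(Hw) leave wide intervals at these scores.

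Shep was at 70 of the 369 regions (19.0%, 15.3 to 23.3). It was at 30.8% (26.6 to 35.2) of the 442 regions with neither Su(Hw) nor CP190, and at 7.14% (5.27 to 9.62) of the 546 with Su(Hw) and no CP190. The share of Shep at regions with CP190 and no Su(Hw) was 16.9% (10.3 to 26.3) in deciles 3 to 5 and 19.2% (15.0 to 24.3) in deciles 6 to 10 of the Mod(mdg4)2.2 score, and that of Rump was 7.23% (3.36 to 14.9) and 0.362% (0.0640 to 2.02). At regions with neither Su(Hw) nor CP190, Shep was in 48.4% (32.0 to 65.2, 31 regions) and 29.5% (25.3 to 34.1, 410 regions) in these bands. At regions with both Su(Hw) and CP190 it was 7.13% (5.04 to 9.99) and 9.71% (6.37 to 14.5) in the same bands. When Shep peaks were limited to q of at most 0.05, the shares became 16.0% of the 369 regions, 26.2% of the 442 and 6.23% of the 546, and 303 regions then fell under the rule. The 68 regions with Shep resembled the 292 in Mod(mdg4)2.2 score (median 66.6, 60.3 to 80.1) and had CP190 peaks of a median of 2141 bp (2105 to 2158).

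Su(Hw) peaks were absent from the regions by rule, and the distance to the nearest one was measured. The Su(Hw) list came from 1 library at an unknown threshold, so signal too weak to be called was not excluded. The nearest Su(Hw) peak was at a median of 16634 bp (13046 to 19277), with quartiles of 6175.5 and 31507 bp. It was within 1000 bp of 22 regions (7.53%, 5.03 to 11.1), within 5000 bp of 64 (21.9%, 17.6 to 27.0) and within 50000 bp of 256 (87.7%, 83.4 to 91.0). Regions with Mod(mdg4)2.2 alone were nearer, at a median of 11119 bp (8596 to 13523), and those with CP190 alone farther, at 21150 bp (19233 to 23065). Both intervals overlap that of the regions only at their ends. With all peaks resized to 300 bp, the median was 9374 bp (7656 to 11692) for 385 regions, 2923 bp (1911 to 4085) for Mod(mdg4)2.2 alone and 20936 bp (19454 to 22635) for CP190 alone. By construction, shorter peaks can let regions with an off-centre Su(Hw) peak enter these sets with Su(Hw) close by. Mod(mdg4)2.2 alone then numbered 577 regions, against 298, and how many entered in this way was not counted. The resized distances are therefore no separate check of the order.

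**Figure D5:**
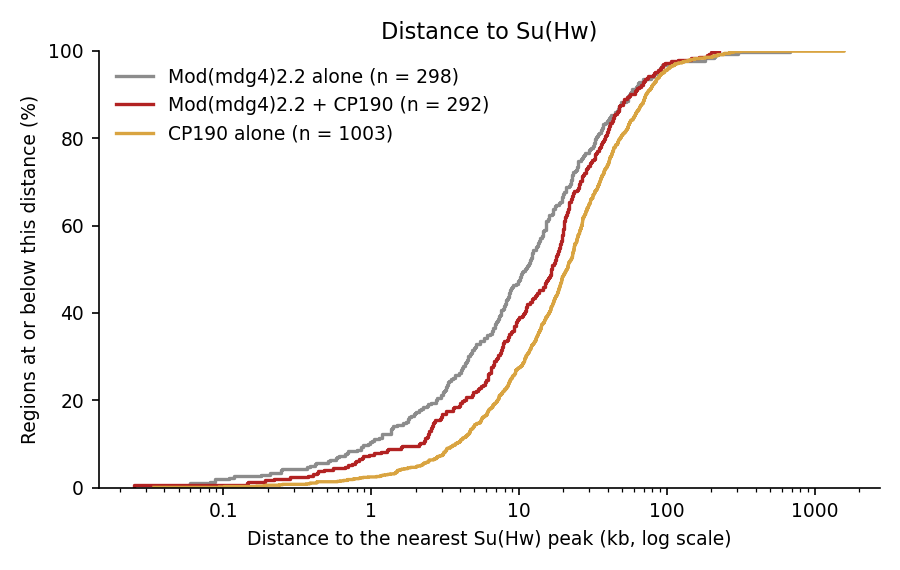
Cumulative percentage of regions (vertical axis) by distance to the nearest Su(Hw) peak in kb (horizontal axis, log scale), for Mod(mdg4)2.2 alone (grey), Mod(mdg4)2.2 with CP190 (red) and CP190 alone (yellow). The red line lies between the others over most of the range, with medians of 11119, 16634 and 21150 bp.

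The score showed no trend with nearness to Su(Hw). Regions within 5 kb of a Su(Hw) peak had a median Mod(mdg4)2.2 score of 74.1 (58.0 to 91.7, 64 regions), those at 5 to 20 kb one of 67.9 (61.2 to 73.8, 107 regions) and those farther away one of 69.4 (63.0 to 79.9, 121 regions). The Spearman rho of score and distance was -0.00067 over the 292 regions, a value close to 0. Nearest to Su(Hw) were chr2L:5340170-5342254 and chr3R:4532033-4534086, both at 25 bp, and chr2L:4417211-4419274 at 146 bp. Their scores were 45.8, 154 and 48.5. Farthest were chr2R:1579765-1582224 at 226135 bp, and 2 regions on X, chrX:1411040-1413141 at 199727 bp and chrX:1405873-1408056 at 194560 bp, with scores of 48.2, 143 and 57.9. Low and high scores were thus found at both ends.

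Shep and Rump peaks lay farther off, and their lists were shorter, with 1443 and 338 peaks against 2369 for Su(Hw). The part of list length in these distances was not tested. The nearest Shep peak was at a median of 36649 bp (32067 to 43722), against 17952 bp (14421 to 26900) for regions with Mod(mdg4)2.2 alone and 27026 bp (24211 to 30005) for CP190 alone. It was as far from triple regions, at 36194 bp (32211 to 40369), and at 40791 bp (37653 to 45401) from regions with Mod(mdg4)2.2 and Su(Hw). Shep was within 5000 bp of 27 of the regions (9.25%, 6.43 to 13.1) and of 76 of 298 with Mod(mdg4)2.2 alone (25.5%, 20.9 to 30.7). Rump was within 5000 bp of 11 (3.77%, 2.12 to 6.62), and its median distance was 117730 bp (92183 to 147217). That distance was much the same for triple regions, at 120936 bp (106936 to 142340), and for Mod(mdg4)2.2 alone, at 118365.5 bp (102505 to 166383). For CP190 alone it was 157264 bp (145696 to 172564).

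The regions were spread evenly over the large chromosome arms. There were 54 on 2L, 53 on 2R, 57 on 3L, 71 on 3R, 55 on X and 2 on the small chromosome 4. The density per megabase between the chromosome start and the last peak was 2.35 on 2L, 2.51 on 2R, 2.36 on 3L, 2.55 on 3R and 2.45 on X. The X held 18.8% (14.8 to 23.7) of the regions, 19.3% of the other 2121 regions with Mod(mdg4)2.2 and 19.5% of all 5224 regions. Triple regions were denser, from 5.58 per megabase on 2L to 6.96 on X. None of the 292 regions was on the heterochromatic or unplaced scaffolds of dm3, which allows a share of up to 1.03% by a limit of 3 counts and 1.30% by the Wilson interval, against 86 of all 5224 regions (1.65%, 1.34 to 2.03). Triple regions and regions with CP190 alone were also almost all on the large arms and chromosome 4, so this is not particular to the regions.

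In the other measures the intervals of the arms overlapped. The share of Mod(mdg4)2.2 regions without Su(Hw) that held CP190 was 50.9% on 2L, 51.5% on 2R, 49.1% on 3L, 49.7% on 3R and 48.7% on X. The median score ran from 64.5 (59.9 to 74.4) on 3R to 78.8 (66.3 to 97.8) on 2R. The median distance to Su(Hw) was lowest on 2L, at 11699 bp (7039 to 19758), and highest on 2R, at 19636 bp (10545 to 26949). The median midpoint distance ran from 26 bp (16.5 to 38) on 3L to 42 bp (23 to 63.5) on 2R. The regions on chromosome 4, chr4:444389-446489 and chr4:999470-1001726, had scores of 146 and 86.0 and CP190 peaks of 2101 and 2257 bp.

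The regions were mostly single. The gap to the next region of the same kind had a median of 255450 bp (206762 to 308524), and 17 of 292 (5.82%, 3.67 to 9.12) had another within 10 kb. The regions numbered only 2.35 to 2.55 per megabase on the large arms, and the part of this in the gaps was not tested. Pairs within 5 kb numbered 5. The closest, at chr3L:962347-964348 and chr3L:964440-966570, were 92 bp apart, with scores of 47.2 and 115, and chrX:1405873-1408056 and chrX:1411040-1413141 were 2984 bp apart. The other 3 pairs, 1 on 3R and 2 on 2L, were 3804 to 4772 bp apart.

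Windows of 100 kb, to which regions were assigned by their midpoint, seldom held several of the regions. Of 1192 windows with any merged region, 251 held at least 1 of the regions, 30 held 2 and 5 held 3 or more. The most, 4 of 6 merged regions, were in chr3R:25400001-25500000, with scores from 51.0 to 109. Windows chr2R:19500001-19600000, chr2R:20200001-20300000, chr3L:900001-1000000 and chr3R:2600001-2700000 held 3 each. None of these 5 windows held a triple region without Rump or Shep (0 to 43.4%). Such a region was in 42.4% (39.3 to 45.6) of the 941 windows without any of the regions. It was in 50.5% (43.8 to 57.1) of windows with 1 and 53.3% (36.1 to 69.8) of windows with 2. The interval of the 5 windows overlaps all of these but that of windows with 1. The 5 windows held 5 to 7 merged regions each, of which 3 or 4 were of the selected kind, so few places were left for a triple region. Su(Hw) was in 3 of the 5: in 2 regions with Mod(mdg4)2.2 in the first, and in 1 region with Mod(mdg4)2.2, CP190 and Rump in each of chr2R:19500001-19600000 and chr3L:900001-1000000. With 5 windows, chosen for their number of regions, this is a description.

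The regions next along the chromosome held Mod(mdg4)2.2 and Su(Hw) more often, and Shep less often, than the 5224 regions as a whole. Of 583 flanking regions, 316 held Mod(mdg4)2.2 (54.2%, 50.1 to 58.2), against 46.2% of all regions, and 297 held Su(Hw) (50.9%, 46.9 to 55.0), against 45.2%. CP190 was in 325 (55.7%, 51.7 to 59.7), against 52.1%, and Shep in 122 (20.9%, 17.8 to 24.4), against 26.4%. Regions of the same kind made up 8.23% (6.27 to 10.7) of the flanks and 5.59% of all regions. The flanks of triple regions held Mod(mdg4)2.2 in 55.8% (53.3 to 58.2), Su(Hw) in 53.7% (51.2 to 56.2) and Shep in 21.1% (19.1 to 23.2), intervals that overlap those above, while those of regions with CP190 alone held Su(Hw) in 39.1% (37.0 to 41.3). Both flanks held Su(Hw) at 79 of 291 regions (27.1%, 22.4 to 32.5), at 29.4% of triple regions and at 16.8% of regions with CP190 alone.

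The 7 regions with 2 Mod(mdg4)2.2 peaks had midpoints from 202 to 998 bp apart. At chr3L:3615466-3617623 and chrX:18251106-18253165 the peaks overlapped each other, 206 and 202 bp apart, with scores of 136 and 48.2 and of 129 and 58.4. At chr2L:71253-74384, the longest of the 7, with a CP190 peak of 3132 bp, the peaks were 998 bp apart with scores of 59.6 and 87.9. At chr2R:20276108-20278304, chr3L:21755841-21758022 and chrX:3634236-3636309 they were 752, 960 and 972 bp apart, with weaker peaks of 46.2, 48.1 and 49.1. At chr3R:3449674-3451726 both peaks were weak, 48.1 and 47.3, and 501 bp apart. In 5 of the 7 regions the weaker peak thus scored from 46.2 to 49.1, within the lowest decile of the list. By their highest peak, 15.4% of the 292 regions were in that decile. The lower of 2 peaks is low by choice, so this is a description.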

How the data were processed

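Libraries of Kc167 cells were grouped by the antibody in their labels, and 1 peak list per factor was used. The submitters' processing notes name Bowtie 0.12.8, Picard 1.77, bedtools 2.17.0, cutadapt 1.1 and Trimmomatic 0.20, with build dm3. How peaks were called, at which threshold, and how 2 libraries became 1 list is not given in the sources used. The score is the signal value deposited by the authors in the Mod(mdg4)2.2, Rump and Shep lists, and the −log10 of q, as deposited, was turned into q. Starts are counted from 1.

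Peaks overlapping by 1 bp or more were merged. The highest Mod(mdg4)2.2 peak stood for a region, with the CP190 peak it overlapped most. Distances run from edge to edge. The members, regions named (extremes of score, width, overlap, distance to Su(Hw) and, up to 5, peak number, and windows with most members) and measures were chosen with earlier results of these data known. Of the 3 windows the naming rule asked for, ties were extended to 5, and all 7 regions with 2 Mod(mdg4)2.2 peaks, the pairs within 5 kb and the regions of chromosome 4 were named after their values were seen. Merging and intervals were tested on simulated data. Alternatives were other joining gaps, overlaps, widths, thresholds, lists and chromosomes. Tools were pandas 2.3.3, NumPy 2.4.6 and SciPy 1.17.1 under Python 3.11.15, and matplotlib 3.10.9. With no dm3 genome at hand, genes and motifs were not analysed here.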

Additional observations from a re-analysis of the deposited data

How the results depend on the processing

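Of 84 values recomputed, 69 stayed within the interval of the reported value, or within 1.5 times the reported count. With all peaks resized to 300 bp, 385 regions met the rule, with a median score of 80.6, a distance to Su(Hw) of 9374 bp (2923 bp for Mod(mdg4)2.2 alone) and a spacing of 186127 bp. Mod(mdg4)2.2 regions then held CP190 in 53.8% and 34.5% of cases without Su(Hw) (5 higher and 5 lower score deciles) and in 65.0% with Su(Hw) in the 5 higher. With the top 50% of Mod(mdg4)2.2 peaks only, 70 regions remained, with a score of 137, a CP190 width of 2107.5 bp, a midpoint distance of 28 bp and a spacing of 907819 bp. Without the Rump and Shep lists the spacing was 203033 bp, and with Su(Hw) the 5 higher deciles held CP190 in 76.1%. Counted per Mod(mdg4)2.2 peak, the 5 lower deciles with Su(Hw) held CP190 in 47.2%. The settings for CP190 shares, resized peaks for regions with 1 factor alone, and leaving out regions within 1000 bp of Su(Hw), were chosen after the data had been seen. The cause of these shifts was not tested, other than that fewer peaks entered with the top 50%. No paired analysis was possible because each factor has 1 list. For the same reason no library could be left out, and depth is unknown.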
